A study of Mus musculus with 12 samples.

Results

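Gene expression was compared between all 6 libraries labelled NLRC3_KO and all 6 WT libraries of a macrophage RNA sequencing study, irrespective of whether the cells had received lipopolysaccharide (LPS). The members were chosen by the genotype in the labels, and they make up 12 of the 12 libraries of the study. The cells were mouse bone marrow-derived macrophages (BMDM), grown from marrow of femurs and tibias with recombinant M-CSF, the growth factor that turns marrow precursors into macrophages. WT cells came from mice with loxP-flanked Nlrc3 alleles and no Cre (LysM-Cre- NLRC3fl/fl). KO cells came from mice that carried LysM-Cre on the same floxed alleles (LysM-Cre+ NLRC3fl/fl). Of each genotype, 3 libraries came from cells kept in RPMI 1640 medium and 3 from cells treated with LPS, and the treatment time was 12 h. The floxed alleles were thus common to both genotypes, and Cre was the labelled difference. LysM-Cre acts in myeloid cells, so other cells in a culture would keep Nlrc3. The labels used here name no age or strain of the mice, and they do not tie the 3 libraries of a group to different mice. The p-values below therefore describe the spread between libraries, part of which may be technical.

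NLRC3 is a cytosolic protein of the NOD-like receptor family. It is known as a brake on innate signalling that acts on TRAF6 and NF-kappaB downstream of Toll-like receptors, on STING, and on the PI3K and mTOR pathway. Macrophages that sense LPS through TLR4 induce cytokines, interferon-stimulated genes and nitric oxide synthase, and move their metabolism towards glycolysis with the help of HIF-1. The LysM-Cre allele is a Cre coding sequence inserted into Lyz2, the gene of the macrophage lysozyme, so Lyz2 is a second gene by which the genotype can be read. Lyz1, its neighbour, encodes the lysozyme of intestinal Paneth cells.

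The stretches upstream of the targeted gene, the Cre driver gene and its neighbour are shown because the genotype labels are examined through these genes. Each runs 5′ to 3′ from 250 to 51 bases before the RefSeq start of the gene, all lie on the minus strand (RefSeq, build GRCm38.p6), and capitals mark ACTTCC, the reverse complement of GGAAGT, which is a core bound by ETS factors such as the macrophage factor PU.1. The windows are chr16:3976683-3976882 for Nlrc3, chr10:117282323-117282522 for Lyz2 and chr10:117292919-117293118 for Lyz1.
Nlrc3: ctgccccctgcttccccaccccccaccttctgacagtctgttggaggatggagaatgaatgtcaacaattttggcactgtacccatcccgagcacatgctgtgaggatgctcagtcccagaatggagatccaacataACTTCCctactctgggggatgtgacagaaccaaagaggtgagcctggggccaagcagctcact
Lyz2: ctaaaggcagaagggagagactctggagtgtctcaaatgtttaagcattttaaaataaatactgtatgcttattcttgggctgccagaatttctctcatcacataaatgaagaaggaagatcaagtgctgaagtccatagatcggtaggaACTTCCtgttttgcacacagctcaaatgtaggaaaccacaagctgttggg
Lyz1: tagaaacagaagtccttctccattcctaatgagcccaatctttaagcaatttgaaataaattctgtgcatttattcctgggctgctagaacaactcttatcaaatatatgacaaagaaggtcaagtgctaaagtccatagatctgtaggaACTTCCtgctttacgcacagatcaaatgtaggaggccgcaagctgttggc
Each of the 3 windows held 1 match. The same letters, on either strand, occurred in 14.6% of 32851 RefSeq promoter entries over a window of the same length, so the match describes these stretches and does not set them apart. The gene bodies lie at chr16:3945007-3976632 (Nlrc3), chr10:117277331-117282321 (Lyz2) and chr10:117287797-117292868 (Lyz1) in the GENCODE M21 annotation.

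Library totals ran from 13082947 to 20960505 counts. Levels are in CPM, counts scaled to a common total after adjustment by trimmed-mean (TMM) factors, and 3 counts, taken as the floor, corresponded to 0.113 to 0.302 CPM depending on the library. The macrophage identity was present in both genotypes: the macrophage genes Adgre1 (mean 849.9 CPM in KO and 942.1 CPM in WT, n = 6 each), Csf1r (1972 and 1698 CPM), Cd68 (1294 and 1013 CPM) and Fcgr1 (1243 and 1171 CPM) were abundant. Averaged over treatments, none of the 18 identity genes tested passed the adjusted threshold, and neither did any other of the 13773 genes. Within LPS 2 of the 18 passed it higher in KO and 3 lower, against 10.4% and 13.7% of all genes. Within medium 3 passed it higher and 2 lower, against 14% and 12.3% of all genes. By Xist and Y-linked transcripts, 2 KO and 3 WT libraries were female and 4 KO and 3 WT libraries male. The 3 libraries labelled KO medium were all male. The library codes of WT medium replicate 2 and WT LPS replicate 1 share the number 45, and those of WT medium replicate 3 and WT LPS replicate 2 share 50, and the sexes matched within each pair. Whether such pairs came from 1 mouse is not given in the labels.

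The targeted gene did not separate the labelled genotypes. Nlrc3 levels were 7.30, 12.3 and 7.10 CPM in WT medium and 1.04, 4.32 and 1.71 CPM in WT LPS. In the KO medium group the values were 1.41, 1.21 and 1.11 CPM, and in the KO LPS group 12.9, 6.68 and 4.91 CPM. The libraries labelled KO LPS overlapped WT medium, those labelled KO medium overlapped WT LPS, and the highest value of all came from a library labelled KO LPS. Averaged over treatments, Nlrc3 differed by -0.53 on the log2 scale (SE 0.37, 95% interval -1.34 to 0.28; edgeR quasi-likelihood test, Benjamini-Hochberg adjusted p = 0.819). Without WT LPS replicate 2 the difference was -0.14, without KO LPS replicate 1 it was -0.78, and in the 4 KO and 3 WT male libraries alone it was -0.01. In the fit of male libraries, also used below, WT medium (replicate 2) and KO LPS (replicate 1) hold 1 library each. Their Nlrc3 levels, 12.3 and 12.9 CPM, were the highest of their groups. An exact two-sided permutation test of the difference in mean log2(CPM + 1) over the 924 arrangements of the 12 libraries gave p = 0.610, where the smallest possible p is 0.00216. Within LPS the gene was higher in KO (log2 1.76, adjusted p = 0.0298, edgeR) and lower within medium (log2 -2.83, adjusted p = 0.00371, edgeR). The count of reads over the whole gene does not tell a deleted from an intact allele where the transcript persists, and which exons were floxed is not stated in the labels. Because Nlrc3 goes against the label in LPS, directions below are those of the labels.

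**Figure D1:**
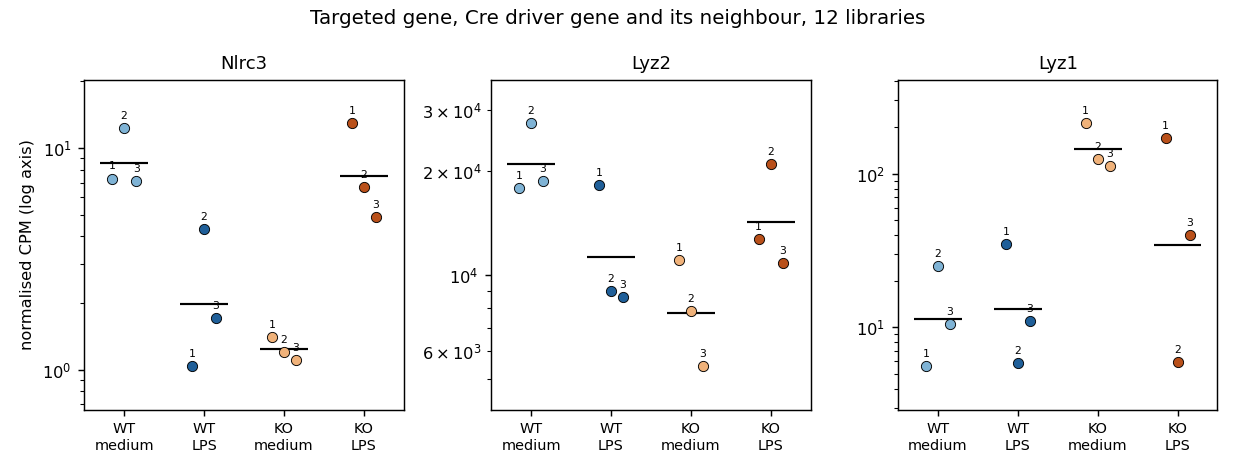
Levels of Nlrc3, Lyz2 and Lyz1 in normalised CPM (log axis) in each of the 12 libraries by labelled genotype and treatment; numbers are replicates and the bar is the geometric mean of 3 libraries. Nlrc3 overlaps between the genotypes, whereas Lyz1 lies above all WT values in 5 of the 6 libraries labelled KO.

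Lyz2, which carries the Cre insertion, is the most abundant of the 3 locus genes. Lyz2 reached 17843, 27452 and 18746 CPM in WT medium and at 18226, 8981 and 8645 CPM in WT LPS, against 11036, 7834 and 5442 CPM in KO medium and 12684, 20914 and 10842 CPM in KO LPS. The genotypes overlapped: KO medium replicates 2 and 3 lay below every WT library, whereas KO LPS replicate 2 lay above 5 of the 6. The averaged difference was -0.54 (SE 0.30, 95% interval -1.19 to 0.10, edgeR adjusted p = 0.804), which is 0.686-fold with an interval of 0.438 to 1.07. Per kilobase of gene, the FPKM level that the authors deposited had a median of 8022 in KO and 14480 in WT for Lyz2, 69.9 and 9.57 for Lyz1, and 0.498 and 1.01 for Nlrc3.

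Lyz1 had the larger labelled difference of the locus genes. Lyz1 stood at 5.60, 25.2 and 10.4 CPM in WT medium, at 35, 5.87 and 10.9 CPM in WT LPS, at 212, 125 and 112 CPM in KO medium and at 169, 5.93 and 40.1 CPM in KO LPS. All but 1 of the KO libraries exceeded every WT library, and KO LPS replicate 2 lay within the WT range. The averaged difference was 2.76 (SE 0.67, 95% interval 1.30 to 4.22), an unadjusted p of 0.00228 that did not pass adjustment over 13773 genes (adjusted p = 0.804, edgeR). Lyz1 counts amounted to 0.0284% to 2.06% of the Lyz2 counts of the same library. Of the 1214 windows of 50 bases in the longest Lyz1 transcript of GENCODE M21, 195 occur exactly in that of Lyz2, or 16.1%. How the authors' counting treated reads that match both genes is not given, and an exchange of reads between them was not tested. Within 2 Mb of Lyz2, 22 genes were tested, and besides Lyz1 the gene Zfc3h1 had an unadjusted p under 0.05 (log2 -1.05). Within 2 Mb of Nlrc3, 36 genes were tested and none had one.

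Across all genes, the averaged genotype difference gave no call. Of 13773 genes tested, 0 passed an adjusted p of 0.05 (edgeR, 0% called), and the smallest adjusted p was 0.804. At an unadjusted p under 0.05 there were 776 genes (5.63%), of which 273 were higher in KO (1.98%) and 503 lower (3.65%). DESeq2 on the same counts called 2 genes, Ighg3 and H2-Q1. The median SE was 0.31 log2 units, so a gene of median precision called on its own would need a difference of 2.46 log2 units, or 5.50-fold. For 7553 of the 13730 genes with an SE, or 55.0%, the 95% interval lay within 1 log2 unit of 0. For the other genes, a difference of a factor of 2 between the labelled genotypes was not excluded by the interval.

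The labelled genotype differences within each treatment were large and ran in opposite directions. In LPS 3324 genes were called (24.1%), of which 1889 were lower in KO, and in medium 3620 were called (26.3%), of which 1932 were higher. Of the 2308 genes called in both, 2306 had opposite signs: 1427 were lower in KO within LPS and higher within medium, and 879 were the reverse. The difference between the treatments itself was called for 5657 genes (41.1%, edgeR). Across the tested genes the labelled difference in LPS and that in medium had a Pearson r of -0.81 and a Spearman rho of -0.73, where genes are not independent replicates and all libraries were scaled together. The median absolute log2 difference was 0.70 in LPS and 0.75 in medium but 0.24 in the average. The average has the same value if the treatment labels of the 2 KO groups are exchanged, since both enter it with equal weight. Whether labels were exchanged was not tested.

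**Figure D2:**
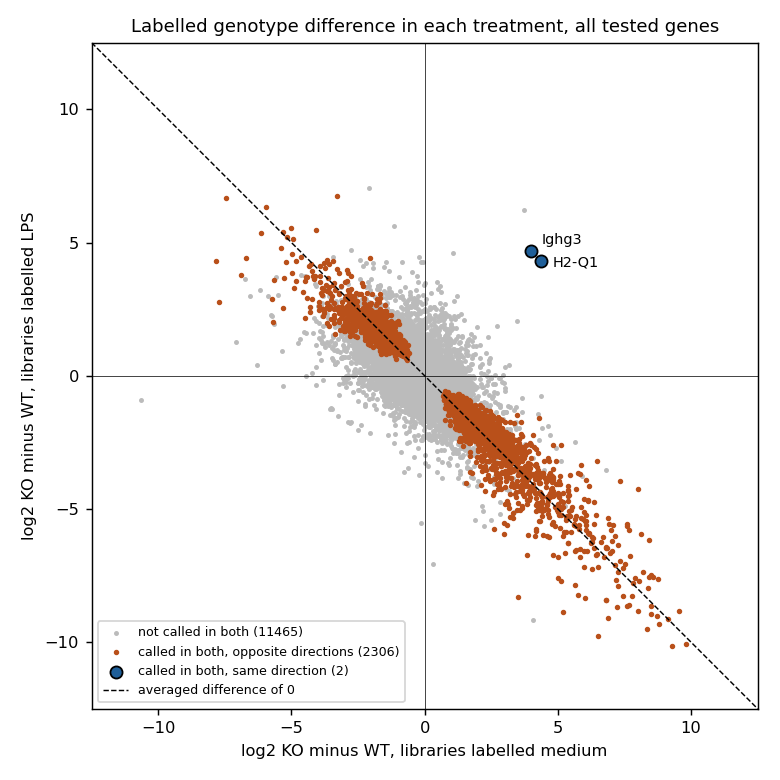
Log2 difference of the libraries labelled KO from WT in medium (horizontal) and in LPS (vertical) for 13773 genes, each point 1 gene; on the dashed line the averaged difference is 0. Genes called in both treatments lie along the dashed line, 2306 with opposite signs, and only Ighg3 and H2-Q1 have the same sign. Both lay near the floor in WT and could pass the filter on low counts through KO libraries alone.

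Genes of the LPS response showed this most plainly. Nos2, the inducible nitric oxide synthase, stood at 4.39, 3.54 and 5.72 CPM in WT medium and 2815, 818 and 3303 CPM in WT LPS, and at 3858, 1633 and 2965 CPM in KO medium and 4.51, 1.14 and 0.560 CPM in KO LPS. The libraries labelled KO medium lay in the range of WT LPS or above it, and those labelled KO LPS in the range of WT medium or below it. Its averaged difference was -0.43 (SE 0.48, 95% interval -1.47 to 0.61), against -10.13 in LPS and 9.27 in medium. Il1b, the precursor of interleukin-1 beta, averaged -0.58 (95% interval -1.50 to 0.35), Il6 averaged -0.31 (-1.75 to 1.12) and Acod1, which makes itaconate, averaged -0.14 (-0.98 to 0.71). Of the 31 LPS-induced cytokines, chemokines and effectors tested, 26 were called lower in KO within LPS, as were 13.7% of all genes, and 27 higher within medium, as were 14% of all genes, and 0 were called in the average. Their averaged median was 0.02, the same as over all genes (0.02). With a term for sex it was -0.22, against 0.04 over all genes. It was -0.08 in the male libraries alone and ran from -0.26 to 0.31 with 1 library left out. The neutrophil-attracting chemokine Cxcl3 (log2 -1.0) and the scavenger receptor Marco (1.44) were the list's 2 members with an unadjusted p under 0.05. Cxcl3 was called lower in KO within LPS (-4.10) and higher within medium (2.10).

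Interferon-stimulated genes, which type I interferon switches on after TLR4 signalling, had the same layout. Of 40 tested, 39 were called lower in KO within LPS and all 40 higher within medium, against 13.7% and 14% of all genes. The list medians were -3.77 in LPS and 3.65 in medium. In the average the median was 0.13, and none was called or had an unadjusted p under 0.05. Their averaged differences ran from -0.69 to 0.53, and the 95% interval of 33 of the 40 lay within 1 log2 unit of 0. Oasl1, a member of the oligoadenylate synthetase family, had the smallest p of the list (log2 0.53, SE 0.26, adjusted p = 0.804, edgeR).

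Glycolysis is the subject in the study's title, and none of its genes was called in the average over treatments, whereas several were called in opposite directions within them. Hk2, the hexokinase that starts glycolysis in activated macrophages, ranged from 43.5 through a median of 84.0 to 181 CPM in KO and from 40.9 through 98.6 to 206 CPM in WT. Pfkfb3, which makes the activator of phosphofructokinase, ranged from 38.6 through 342 to 1266 CPM in KO and from 28.8 through 527 to 1458 CPM in WT. Ldha, which turns pyruvate into lactate, ranged from 402 through 1282 to 2007 CPM in KO and from 393 through 1441 to 1987 CPM in WT. All 3 genes were high in WT LPS and KO medium, Ldha also in WT medium replicate 2 and KO LPS replicate 1, and the ranges of the genotypes overlapped. The averaged differences were -0.04 for Hk2 (95% interval -0.49 to 0.42), -0.05 for Pfkfb3 (-0.80 to 0.71) and -0.04 for Ldha (-0.91 to 0.83). Within LPS, Hk2 was lower in KO (-1.53, adjusted p = 0.00417) and within medium higher (1.46, adjusted p = 0.00477, edgeR). The averaged differences were -0.13 for Pfkl (-0.53 to 0.27) and 0.24 for Pfkp (-0.44 to 0.92), both phosphofructokinases, 0.03 for the pyruvate kinase Pkm (-0.58 to 0.63) and -0.06 for the glucose transporter Slc2a1 (-0.83 to 0.71). Each interval includes 0 and lies within 1 log2 unit of it, so a difference by a factor of 2 in either direction lies outside the interval for these genes, and a small one does not.

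**Figure D3:**
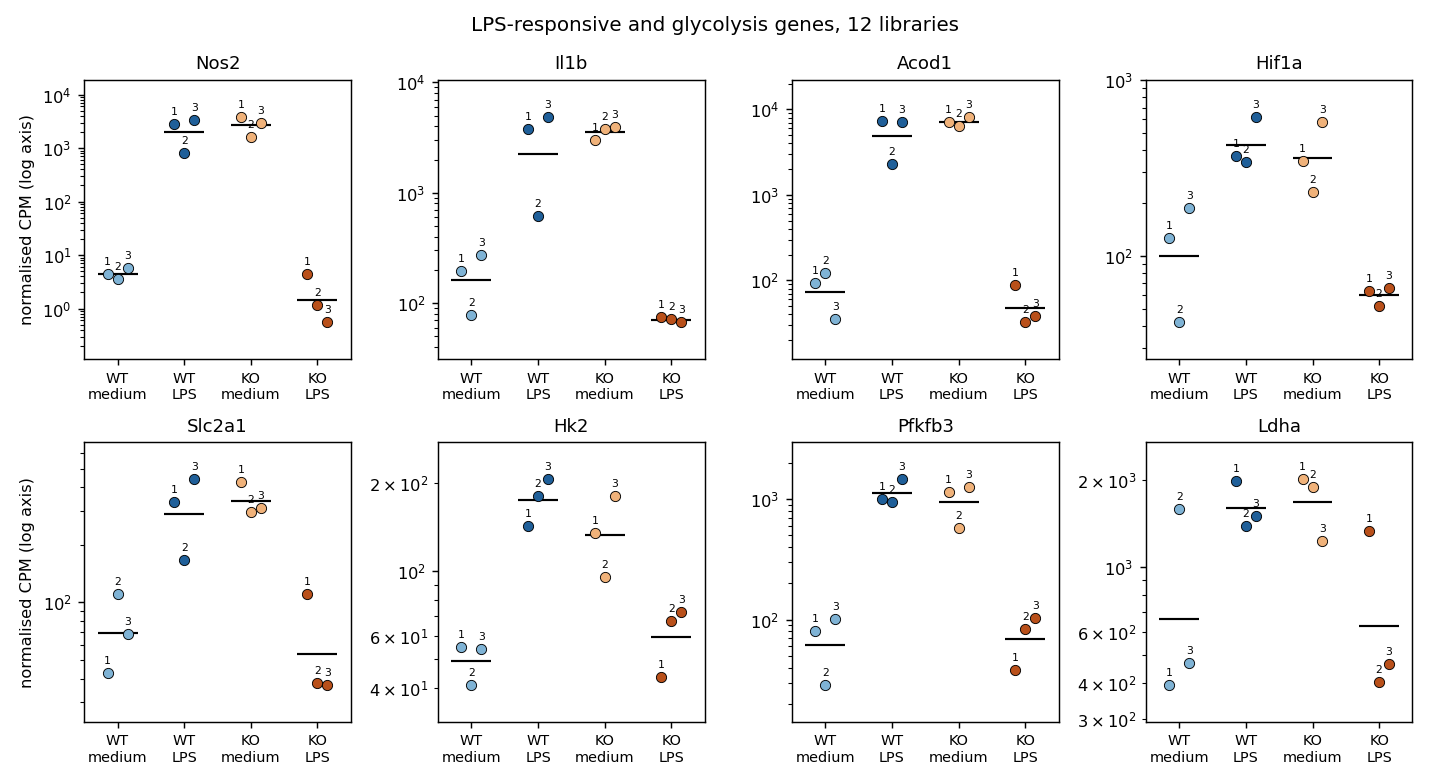
Levels in normalised CPM (log axis) of 4 LPS-responsive or regulatory genes and 4 glycolysis genes in each of the 12 libraries by labelled genotype and treatment; numbers are replicates and the bar is the geometric mean of 3 libraries. For Nos2, Il1b and Acod1 the libraries labelled KO medium lie near WT LPS and those labelled KO LPS near WT medium.

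The lists of metabolic genes gave no call in the average. Of 19 glycolytic enzymes tested, 2 were called higher and 5 lower in KO within LPS, against 10.4% and 13.7% of all genes. Within medium 5 were called higher and 1 lower, against 14% and 12.3% of all genes. In the average 0 had an unadjusted p under 0.05, 12 were higher in KO and 7 lower by sign, and the median was 0.06. Of 16 transporters and regulators, 1 had one, Pdk3 (0.51), a kinase that inhibits pyruvate dehydrogenase, and the median was 0.01. Of 20 genes of HIF-1 and its targets, Ero1l (-0.45), an oxidase of the endoplasmic reticulum, and P4ha2 (-0.72), a prolyl hydroxylase of collagen, had an unadjusted p under 0.05. By sign 16 of the 20 were lower in KO, with a median of -0.24, and Hif1a itself averaged -0.59 (95% interval -1.34 to 0.16). Of 22 genes of the tricarboxylic acid cycle and itaconate, 18 were higher by sign with a median of 0.22, and all 22 intervals lay within 1 log2 unit of 0. Among them Idh2, the mitochondrial isocitrate dehydrogenase, had an unadjusted p under 0.05 (0.53). Of 23 genes of cholesterol synthesis, 22 were higher by sign with a median of 0.27. The cholesterol median was 0.19 with a term for sex, 0.32 with a replicate block, 0.09 to 0.61 with 1 library left out, and -0.0073 in the male libraries alone. With library size alone in place of TMM factors, the median of all genes moved by over 0.1, to -0.14, and the medians of glycolytic enzymes (-0.10), of transporters and regulators (-0.16), of the STING pathway (-0.12), of LPS-induced genes (-0.12) and of interferon-stimulated genes (-0.01) lay below 0 with it.

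The pathways that NLRC3 is known to restrain gave no call in the average. Of 14 NOD-like receptors tested, 10 were lower in KO by sign with a median of -0.38, which was -0.12 without WT LPS replicate 2, -0.22 with a term for sex and -0.03 in the male libraries alone, and the smallest p belonged to Nlrp10 (-0.73, adjusted p = 0.804, edgeR). Of 18 genes of TLR4 and TRAF6 signalling, Tlr4, the LPS receptor, had an unadjusted p under 0.05. Tlr4 ranged from 22.1 through 34.7 to 45.6 CPM in KO and from 31.3 through 65.5 to 99.8 CPM in WT, and the ranges overlapped. Its difference was -0.89 (SE 0.30, 95% interval -1.54 to -0.24, unadjusted p = 0.0120, adjusted p = 0.804, edgeR), and Traf6 itself averaged -0.03. Of 9 genes of the STING pathway tested, none had an unadjusted p under 0.05, the median was 0.06 and all 9 intervals lay within 1 log2 unit of 0. Of 13 NF-kappaB subunits and inhibitors none had one either, with a median of 0.17. Of 22 genes of PI3K, AKT and mTOR, the median was -0.11, and Rictor (-0.68), a subunit of the mTOR complex that phosphorylates AKT, had the smallest p (unadjusted p = 0.0319, adjusted p = 0.804, edgeR). Rictor differed by -2.05 in LPS and by 0.70 in medium.

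**Figure D4:**
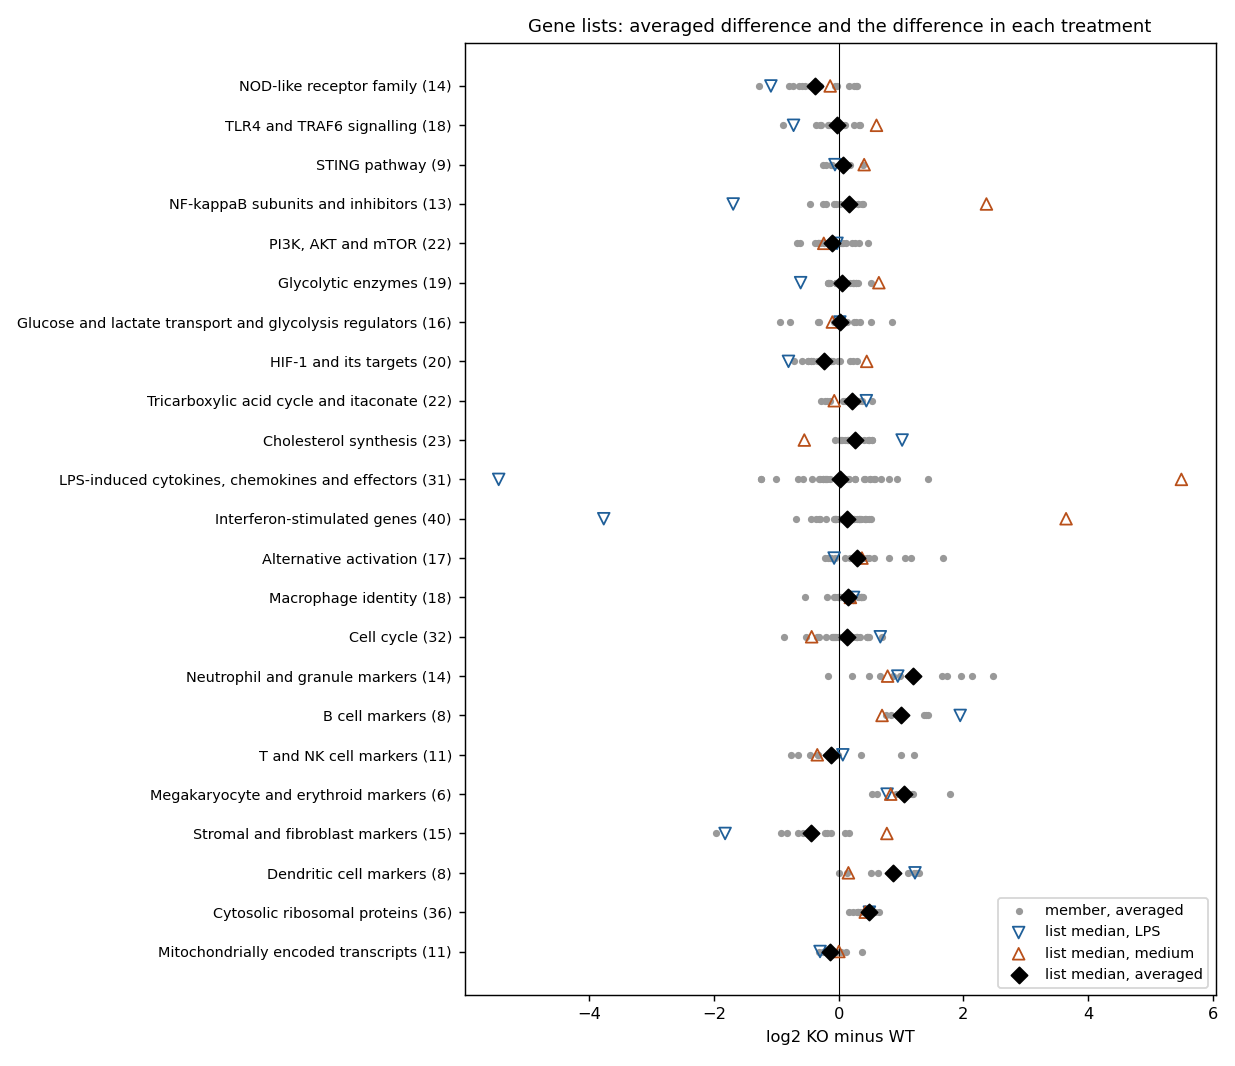
Log2 difference of the libraries labelled KO from WT by gene list, with the number of genes tested in brackets; grey points are the members' averaged differences, the diamond is their median, and the triangles are the list medians in LPS (pointing down) and in medium (pointing up). The LPS-induced and interferon-stimulated lists have medians of opposite sign in the 2 treatments and averaged medians of 0.02 and 0.13.

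Lists of macrophage state and growth were read in the same way. Of 17 genes of alternative activation tested, 3 had an unadjusted p under 0.05, all higher in KO in the average. They were the chemokine Ccl22 (1.16, with -1.35 in LPS and 3.66 in medium), the haemoglobin scavenger receptor Cd163 (1.68) and the cytokine Tgfb1 (0.45). Their list median was 0.29, and Arg1, the arginase of this state, averaged -0.12. Of 32 cell cycle genes, only the mitotic checkpoint kinase Bub1 had such a p (-0.88), and the median was 0.14, which turned to -0.07 without KO medium replicate 3 and to -0.22 in the male libraries alone. Of 11 mitochondrially encoded transcripts none had one, with a median of -0.14.

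Markers of cells other than macrophages differed in level among the libraries. Of 14 neutrophil and granule genes tested, 7 had an unadjusted p under 0.05 and all 7 were higher in KO, against 1.98% of all genes, with a list median of 1.19. They included, in the average, Retnlg (2.48), Mpo (2.14) and Elane (1.74), of which Mpo and Elane are enzymes of neutrophil granules. Retnlg differed by 7.06 in LPS and by -2.11 in medium, and its highest levels came from KO LPS replicates 2 and 3. Mpo differed by 4.47 in LPS and by -0.19 in medium, and Elane by 3.76 and -0.28. Prtn3 (2.72 and 0.59) and Ctsg (2.81 and 1.11) were higher by sign in both treatments. S100a8 (-0.41 and 2.17) and Camp (-0.10 and 2.49) were higher by sign in medium only. The summed neutrophil markers stood at 810 to 6128 CPM in WT and 1108 to 6225 CPM in KO, and the high sums came from WT LPS replicate 3, KO medium replicate 3 and KO LPS replicates 2 and 3. Of 8 B cell markers 4 had such a p, with a median of 1.00, and their sum was 77.9 to 158 CPM in WT and 71.0 to 881 CPM in KO, with 881 CPM in KO LPS replicate 3. Of 6 tested megakaryocyte and erythroid markers 3 had such a p (median 1.04), and of 8 dendritic cell markers 2 had (median 0.87). Of 15 stromal markers 1 had such a p, Postn (-1.97), a matrix protein, and 13 were lower by sign with a median of -0.44; of 11 T and NK cell markers none had (median -0.13). With a term for sex in the fit of all 12 libraries, the medians were 1.22 for neutrophil, 1.03 for B cell, 1.08 for megakaryocyte and erythroid, 0.98 for dendritic cell and -0.55 for stromal markers. With 1 library left out they ran from 0.77 to 1.61 for neutrophil, from 0.77 to 1.21 for B cell, from 0.66 to 1.06 for dendritic cell and from -0.73 to -0.20 for stromal markers. In the 4 KO and 3 WT male libraries alone, which leaves out KO LPS replicates 2 and 3 together, they were 0.13 for neutrophil, 0.19 for B cell, 0.59 for megakaryocyte and erythroid, 0.32 for dendritic cell and -0.06 for stromal markers. In a bulk library, fewer cells of a type and less RNA per cell cannot be told apart. The 36 cytosolic ribosomal protein genes were all higher in KO by sign, with a median of 0.49, and none had an unadjusted p under 0.05. Their median was 0.48 with a term for sex, 0.24 without KO medium replicate 2, 0.85 without WT medium replicate 2 and 0.04 in the male libraries alone.

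Ranges of the labelled genotypes did not overlap for 9 of 13773 genes (0.0653%), of which 6 were higher in KO (0.0436%) and 3 lower (0.0218%). Nrgn, the calmodulin-binding protein neurogranin, stood at 9.39 to 12.9 CPM in WT and 15.2 to 45.1 CPM in KO, and the 2 highest values came from KO LPS replicates 2 and 3. Its difference was 1.03 (SE 0.22, 95% interval 0.54 to 1.52, unadjusted p = 0.000669, adjusted p = 0.804, edgeR). Ighg3, an immunoglobulin heavy chain constant region, had 2 to 5 counts in each WT library and 10 to 222 counts in KO, with 222 counts in KO LPS replicate 3. H2-Q1, a class Ib histocompatibility gene, had 2 to 4 counts in the WT libraries and 3 to 160 in KO, so it overlapped in counts, and KO medium replicate 2 had 3 counts. Both genes lay near the floor in WT, and their fitted differences, 4.33 (SE 0.83) and 4.34 (SE 0.92), depend on few reads. The filter on low counts keeps a gene with enough counts in 3 libraries, so both could be tested through KO libraries alone. That they were higher in KO without overlap, and in both treatments, is therefore partly set by the filter. Among the 3 lower genes, Fancm, a helicase of the Fanconi anaemia pathway, stood at 2.35 to 5.38 CPM in WT and 0.943 to 2.11 CPM in KO (log2 -1.05, SE 0.29, adjusted p = 0.804, edgeR). Piga, which starts the synthesis of membrane glycolipid anchors, stood at 3.26 to 4.98 CPM in WT and 2.22 to 3.23 CPM in KO (log2 -0.57). The other 3 higher genes were Gpatch1 (0.19) and the gene models Gm2788 (1.03) and Gm42517 (1.46), and the third lower one was Gm20045 (-2.28). Gm20045 had 1 to 8 counts in KO and 5 to 63 in WT, so it could be tested through WT libraries alone.

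**Figure D5:**
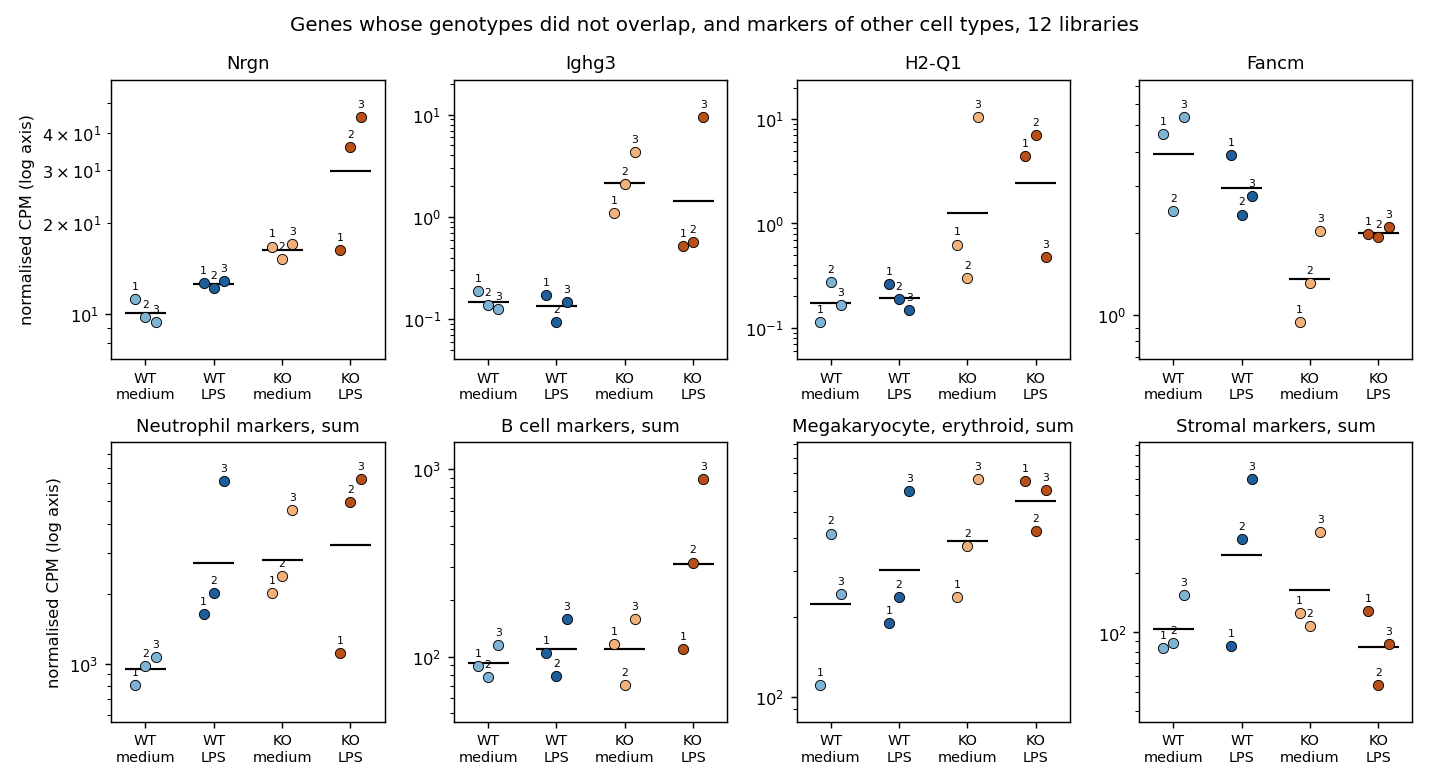
Levels in normalised CPM (log axis) in each of the 12 libraries of 4 genes whose labelled genotypes did not overlap (top) and of the summed markers of 4 other cell types (bottom); numbers are replicates and the bar is the geometric mean of 3 libraries. The B cell sum is 881 CPM in KO LPS replicate 3 and at most 318 CPM in the other libraries.

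Since no gene was called, genes with a small unadjusted p in each direction are named here, after their values were seen. Higher in KO in the average were Ly6d, a surface protein of early B cells (1.89), Gp5, a platelet glycoprotein (1.49), Tesc (1.37) and Cst7 (1.06), a cystatin. Cst7 ran in opposite directions within the treatments, with -3.70 in LPS and 5.82 in medium. Lower in KO in the average were the zinc finger genes Zfp993 (-1.25), Zfp950 (-1.22), Zfp182 (-1.08) and Zfp738 (-0.93). So were Fam208a, a subunit of a silencing complex (-1.14), Papolg, a poly(A) polymerase (-1.03), and Rora, a nuclear receptor (-0.91). Rora differed by 0.51 in LPS and by -2.34 in medium. Ly6d had an interval of 0.91 to 2.88 and stood at 0.704 to 3.42 CPM in WT and 2.32 to 13.5 CPM in KO, with KO LPS replicates 2 and 3 highest.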

How the data were processed

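Gene expression was measured in 12 libraries, 3 per labelled group. The authors deposited raw read counts (whole numbers, not normalized) for 54446 Ensembl identifiers, and a table of FPKM values, which are fragments per kilobase of gene at equal library totals. The FPKM values were the counts scaled by library totals, so the tables are not independent. Over all libraries of 8069 genes, the 99th percentile of the deviation from the median of the gene was 0.00724%. Reads were placed on mm10, per the submitters' processing notes. Not given in the sources used here were the aligner, the counter, its strand setting and the annotation. The labels' protocols name both a TruSeq and a KAPA Stranded kit, and reads of overlapping or antisense gene pairs cannot be told apart without strand.

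Counts were fitted with edgeR 4.0.16 (R 4.3.3; glmQLFit, glmQLFTest) with 1 mean per labelled group over all libraries, TMM factors (0.703 to 1.46), filterByExpr, and Benjamini-Hochberg adjustment over 13773 genes at 0.05. The contrast was the mean of the KO groups less that of the WT groups. Standard errors came from the weights of the fitted model and the moderated dispersion; 43 genes had none. The script was tested on simulated data. Alternatives were DESeq2 1.42.0 and its size factors, library size alone, no filter, an additive fit, genotype alone, a replicate block, a sex term, male libraries alone and each library left out.

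The comparison, the 26 gene lists and the named genes were chosen with earlier results of these data known. Named were Nlrc3, Lyz2, Lyz1, called genes of at least 5 CPM, from each list the member with the smallest p, 12 fixed metabolic and LPS genes, and genes without overlap; since no gene was called, the genes of smallest p are named as values. Positions come from GENCODE M21, counted from 1, which matched 54409 identifiers and not 37; the floor of 3 counts covers counting error only. Some list members are not reported here.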

Additional observations from a re-analysis of the deposited data

Results flagged for a closer look

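For 32 of the 66 named genes the labelled genotype difference itself differed between LPS and medium (edgeR, Benjamini-Hochberg adjusted p under 0.05), as it did for 41.1% of all genes. Given as the log2 difference in LPS less that in medium, the value was above 0 for Nlrc3 4.59, Lyz2 1.71, Retnlg 9.17, Idh2 3.06, Nlrp10 4.13, Nlrp1b 5.24, Eno2 1.57, AI480526 2.27 and Rora 2.85. It was below 0 for Hk2 -2.99, Pfkl -3.12, Pfkp -3.85, Pfkfb3 -7.74, Ldha -2.22, Slc2a1 -4.56, Hif1a -4.58, Nos2 -19.40, Il6 -15.13, Il1b -9.75, Acod1 -13.15, Postn -3.54, Ccr7 -3.49, Ccl22 -5.01, Pdk3 -3.56, Ero1l -2.46, Rictor -2.75, Cxcl3 -6.20, Oasl1 -9.73, Lck -6.36, Lag3 -5.87, Cst7 -9.52 and Zfp993 -2.30. Nlrc3 was thus among the genes in which the labelled direction turned with treatment.

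In 8 of 130 sets of 6 libraries, 1 library stood apart from the other 5 of its labelled genotype, and chance flags about 1 in 20. KO LPS replicate 3 stood apart upwards in Igkc (539 CPM), Igkv8-21 (30.5 CPM) and Gm2788 (1.16 CPM), and downwards in Zfp738 (2.63 CPM). WT LPS replicate 3 stood apart upwards in C1qb (2535 CPM) and Gp9 (8.47 CPM), WT LPS replicate 1 in Lck (26.8 CPM), and KO medium replicate 3 in Postn (3.15 CPM).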

How the results depend on the processing

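No gene was called in the averaged comparison under any alternative except DESeq2, which called 2 (2 higher, 0 lower), and the fit without the filter on low counts, which called 6 of 27062 (5 higher, 1 lower: Ighg3, H2-Q1, Lyz1, Igkv8-21 and Rps27rt higher, Xist lower). With a replicate block 0 were called and 612 had an unadjusted p under 0.05. The replicate numbers gave no evident pairing of the samples: same-number correlations ran from -0.679 to 0.639 over 18 pairs, 8 of them over 0.1. WT medium replicate 1 and KO LPS replicate 2, of different numbers, correlated at 0.70. These are deviations from means of 3 libraries, which depend on each other, so the range cannot show that no pairing exists. Of the libraries, 5 correlated best with their own number. The code numbers 45 and 50 pair other libraries and were not used as a block. Their pairs correlated at 0.63 and 0.48, and WT medium replicate 1 with WT LPS replicate 2, which share no code number, at 0.51. Leaving out each library gave 0 calls each time; the 776 genes with an unadjusted p under 0.05 became 364 without KO LPS replicate 3, 401, 480 and 2133 without WT medium replicates 3, 1 and 2, 458 and 1327 without WT LPS replicates 2 and 1, 1321 without KO medium replicate 3 and 1704 without KO LPS replicate 1. They became 294 in the additive fit, 406 for genotype alone, 1108 with library size alone, 1171 with a sex term and 107 of 14040 in the male libraries. Genes without overlap numbered 4 with library size alone, 15 without the filter and 11 to 42 with a library left out, where fewer samples are compared. The treatment-dependent genes numbered 3701 in the male libraries, with fewer samples, 8133 with library size alone, and 4709 to 6296 with a library left out. Library size alone put the all-gene median at -0.14 in place of 0.02. With a sex term they turned for Hk2 (0.018), Pfkfb3 (0.070) and Pkm (-0.11). In male libraries they turned for Pfkp (-0.0011), Pfkfb3 (0.081), Hif1a (0.14), Nos2 (0.14), Nlrp1b (0.21) and Chuk (0.029). With genotype alone they turned for Ldha (0.0029), Slc2a1 (0.071), Nos2 (0.28), Il6 (0.014), Il1b (0.15) and Acod1 (0.36). Pkm was -0.14 with library size alone and -0.0036 without the filter. With a library left out Nlrc3 ran from -0.78 to -0.14, Hk2 from -0.19 to 0.062, Pfkfb3 from -0.27 to 0.13, Pkm from -0.23 to 0.17, Ldha from -0.42 to 0.41, Slc2a1 from -0.42 to 0.13 and Acod1 from -0.43 to 0.038. The cause of these turns was not tested. Counts of 2 to 5 in the WT libraries limit Ighg3 and H2-Q1.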

Other observations

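Immunoglobulin genes and zinc finger genes recurred among genes with a small unadjusted p, and both groups were chosen after their values were seen, without a comparison with other groups. Of 42 immunoglobulin genes tested, 39 were higher in the libraries labelled KO by sign, 19 had an unadjusted p under 0.05 and all 19 were higher, with a median of 1.44 (1.94 in LPS and 0.69 in medium), against 1.98% of all genes on the higher side. Their summed level was 131 to 267 CPM in WT and 106 to 357 CPM in 5 KO libraries, and 1952 CPM in KO LPS replicate 3. The filter on low counts keeps a gene with enough counts in 3 libraries, so a gene can be tested through KO libraries alone. Igkv8-21, for example, had 0 to 3 counts in the WT libraries and 707 in KO LPS replicate 3. The shares of immunoglobulin genes on the higher side are therefore partly set by the filter. Of 326 genes named Zfp and a number, most of which encode DNA-binding zinc finger proteins, 258 (79.1%) were lower by sign, against 47.4% of all genes, 69 had an unadjusted p under 0.05 on the lower side and 3 on the higher side, against 3.65% and 1.98% of all genes. Their median was -0.40, and it was -0.052 in LPS and -0.70 in medium. Their summed level was 3077 to 4720 CPM in WT and 3178 to 4808 CPM in KO, and the ranges overlapped. No gene of either group was called.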
